A study of Caenorhabditis elegans with 4 samples.

Results

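The genes described here encode motors, kinases and the microtubule-cutting enzyme katanin, of the meiotic or mitotic spindle of the nematode Caenorhabditis elegans. They are called spindle genes or spindle motor genes below, although katanin and the kinases are not motors. They were chosen by name as 10 genes for katanin, kinesins and Aurora kinases, and a gene was used if the array held a probe annotated with its symbol alone. By that rule 7 of the 10 were measured, of 14943 genes with such a probe: mei-1, mei-2, klp-7, klp-19, air-1, air-2 and zen-4. The kinesin genes klp-15, klp-16 and klp-18 had no such probe. The 4 probes that carry their names are shared with another symbol (klp-15 with klp-16, and klp-18 with klp-10), so no value is given for them.

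RNA of wild-type (wt) adults from 4 preparations, called preps 1 to 4, was set against a wt mixed reference RNA on 4 two-colour arrays, 1 per prep. Per the labels, channel 2 held the adult RNA and channel 1 the reference RNA throughout. They give no strain name, sex, age or content of the reference. Each value is a deposited log2 ratio of the 2 channels. The direction of adult over reference is likely, because adult RNA is in channel 2, but it is not stated. Positive values below are therefore read as likely higher in adults. No array had its channels swapped, so for any 1 gene an effect of the channel and a true difference cannot be told apart. Nothing says that the preps came from separate cultures. The p-values measure the spread between the 4 arrays, which holds differences of preps, reference channel and arrays together. Whether they cover any spread between reference preparations is unknown.

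Spindles separate chromosomes in the meiotic divisions of the egg and the sperm precursors and in the mitoses of the germline and embryo. The egg of this worm builds its meiotic spindles without centrosomes. Katanin, which cuts microtubules, acts there and is removed before the first mitosis, which uses centrosomes brought in by the sperm. Kinesins move or take apart microtubules, and the Aurora kinases set when and where these proteins act.

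On these arrays all 7 measured spindle genes had positive ratios. The mean log2 ratios lay between 0.62 for zen-4 and 1.42 for klp-19, which is 1.54-fold and 2.68-fold likely higher in adults than in the reference. In limma (two-sided, adjusted over the 14935 genes measured on 3 or more arrays, threshold 0.05) all 7 were called positive, where 23.2% of all genes tested were called positive and 21.2% negative. The median of the 7 means was 1.04, against 0.06 for all genes. A positive ratio on every array was found for 7 of 7 spindle genes, where 30.7% of the 14639 genes with 4 values had one. With arrays centred on their medians it was found for 6 of 7, all but zen-4, where 28.2% of genes had one. The spindle genes were picked with earlier results of these data known, so the count describes them and does not set them apart.

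**Figure D1:**
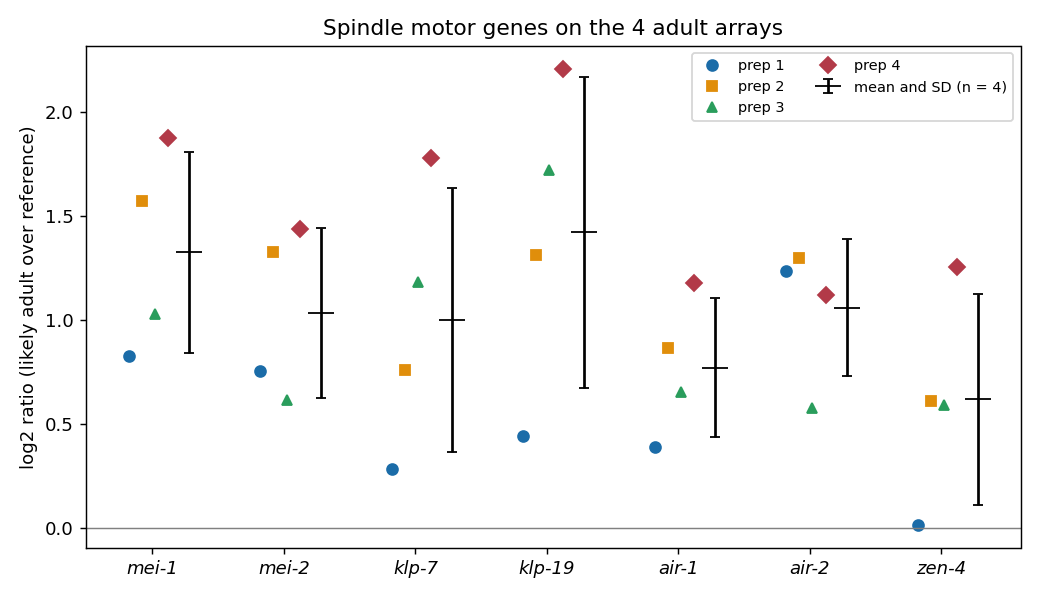
Log2 ratio (likely adult over reference) of each of the 7 spindle motor genes on each of the 4 arrays, with 1 marker per prep, and the mean with its SD (black bar, n = 4). All points lie above 0, the lowest being zen-4 on prep 1 at 0.02, and the red diamonds of prep 4 are the highest point for every gene except air-2.

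Katanin is made of a catalytic and a regulatory subunit. The catalytic subunit gene mei-1, an AAA ATPase gene, had log2 ratios of 0.83, 1.57, 1.03 and 1.88 on preps 1 to 4. Preps 2 and 4 were high and preps 1 and 3 low, and the mean was 1.33 ± 0.48 (SD, n = 4; limma adjusted p = 0.0012). Its mean was above that of 97.0% of the genes tested.

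The regulatory subunit gene mei-2 had 0.76, 1.33, 0.62 and 1.44 on preps 1 to 4. It followed the same order of high preps (2 and 4) and low preps (1 and 3), with a mean of 1.04 ± 0.41 (SD, n = 4; limma adjusted p = 0.0025). It was the only measured spindle gene with 2 probes of its own. Their means were 1.12 ± 0.59 and 0.96 ± 0.26 (SD, n = 4 each). The probes differed by 0.02 on prep 3 and by 0.57 on prep 2, the smallest and largest gap of the 4 arrays. Both probes were positive on every array.

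The log2 ratio of mei-1 exceeded that of mei-2 on all 4 arrays, by 0.07, 0.24, 0.41 and 0.44 on preps 1 to 4. The mean difference was 0.29 ± 0.17 (SD, n = 4), with p = 0.125 in an exact sign-flip permutation test (two-sided), the smallest p that 4 arrays allow, and 0.188 adjusted over the 3 pairs compared. A difference in ratio is one of change against the reference and says nothing of which subunit has more RNA.

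Among the kinesins, klp-19 had the highest mean of the 7 genes. It encodes a chromokinesin, a motor that sits on chromosomes and helps them line up on the spindle. Its log2 ratios were 0.45, 1.32, 1.72 and 2.21 on preps 1 to 4. Prep 1 was low and prep 4 high, and the mean of 1.42 ± 0.75 (SD, n = 4; limma adjusted p = 0.0032) was above that of 97.6% of the genes tested.

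The gene klp-7 encodes a kinesin that shortens microtubules from their ends, a relative of mammalian MCAK. It had 0.29, 0.76, 1.18 and 1.78 on preps 1 to 4, again lowest on prep 1 and highest on prep 4. The mean was 1.00 ± 0.63 (SD, n = 4; limma adjusted p = 0.0092). These 2 genes had the widest ranges of the 7, at 1.76 for klp-19 and 1.49 for klp-7, and both lie on chromosome III in the RefSeq annotation of assembly WBcel235.

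The gene zen-4 encodes the kinesin of the centralspindlin complex, which bundles microtubules between the separating chromosomes before the cell divides. It had 0.02, 0.61, 0.59 and 1.26 on preps 1 to 4. Prep 1 was near 0 and prep 4 high, and the mean of 0.62 ± 0.51 (SD, n = 4; limma adjusted p = 0.036) was the lowest of the 7. Its call was lost with arrays centred on their medians (limma adjusted p = 0.052) and with the date given in the sample titles as a block (adjusted p = 0.062). It was also lost without prep 2 (adjusted p = 0.083), without prep 3 (adjusted p = 0.094) and without prep 4, where the mean was 0.41 (adjusted p = 0.13).

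The zen-4 ratio was below the klp-7 ratio on all 4 arrays, by a mean of -0.38 ± 0.21 (SD, n = 4, zen-4 minus klp-7; exact sign-flip permutation p = 0.125, adjusted p = 0.188).

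The Aurora kinases act at different places of the spindle. Aurora A, encoded by air-1, acts at centrosomes, which mature and build microtubules there. The gene had 0.39, 0.87, 0.65 and 1.18 on preps 1 to 4, with prep 1 low and prep 4 high. Its mean was 0.77 ± 0.33 (SD, n = 4; limma adjusted p = 0.0064).

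Aurora B, encoded by air-2, is the kinase of the chromosomal passenger complex, which acts on meiotic chromosomes and at the middle of the spindle. The gene had 1.24, 1.30, 0.58 and 1.12 on preps 1 to 4, so that prep 3 was low and the others lay close together. The mean was 1.06 ± 0.33 (SD, n = 4; limma adjusted p = 0.0014). It was the only spindle gene with a higher ratio on prep 1 than on prep 4.

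The ratio of air-2 was above that of air-1 on preps 1 and 2, by 0.85 and 0.43, and differed from it by -0.07 on prep 3 and -0.06 on prep 4. The mean difference of 0.29 ± 0.44 (SD, n = 4, air-2 minus air-1) was smaller than its SD and became 0.10 without prep 1 (exact sign-flip permutation p = 0.50, adjusted p = 0.50 with all preps, where no pair could reach 0.05). The other pairs fixed for this comparison needed klp-15, klp-16 or klp-18 and were not measured.

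In order of their means, the genes ran klp-19, mei-1, air-2, mei-2, klp-7, air-1 and zen-4. Every gene's range over the preps overlapped that of its neighbours in this order. A mean of at least 1 was reached by 5 of the 7, with klp-7 just above that value at 1.00 and air-1 below it at 0.77. Of all genes tested, 6.22% were called positive with a mean of at least 1. By chromosome, mei-1, mei-2 and air-2 lie on I, klp-7 and klp-19 on III, zen-4 on IV and air-1 on V.

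**Figure D2:**
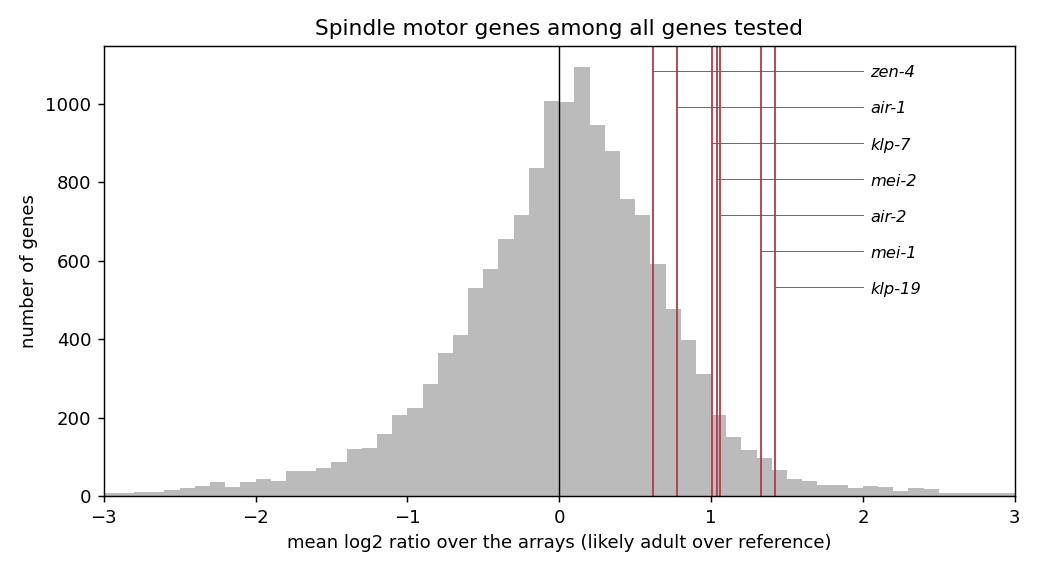
Histogram of the mean log2 ratio of all 14935 genes tested (grey, shown between -3 and 3), with the means of the 7 spindle motor genes as red lines. The lines run from zen-4, above 82.6% of the genes, to klp-19, above 97.6% of them.

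The spread between preps was wide for these genes, as all 7 had an SD above the median SD of the 14639 genes with 4 values, 0.307. The SD of klp-19 was larger than that of 95.1% of these genes and the SD of air-2 larger than that of 54.9%. The median of the 7 genes was 0.45, 1.30, 0.65 and 1.44 on preps 1 to 4, while the median of all genes tested lay between 0.00 and 0.09. Prep 1 was the lowest array for 5 of the 7 and prep 4 the highest for 6 of the 7. How many of all genes had these as their lowest and highest arrays was not counted. On prep 4, 6 of the 7 were higher than on prep 1, where 49.2% of the 14639 genes were.

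Preps 3 and 4, which carry the same date in their titles, differed in 1 direction. All 7 genes were higher on prep 4 than on prep 3, by 0.49 for klp-19 to 0.85 for mei-1, where 52.7% of the genes with 4 values were higher. With only preps 3 and 4, the means lay between 0.85 for air-2 and 1.97 for klp-19. With 1 array per prep, these gaps cannot be tested.

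Between preps 2 and 3 the genes moved in both directions. On prep 3, klp-7 was higher by 0.42 and klp-19 by 0.41 than on prep 2. The ratios of air-2, mei-2, mei-1 and air-1 were lower on prep 3, with differences of -0.72, -0.71, -0.54 and -0.21 (prep 3 minus prep 2). The zen-4 gene was level, with a difference of -0.02.

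Marker genes moved between the preps as well. The median of 14 oocyte markers was 0.54, 0.98, 0.32 and 1.37 on preps 1 to 4, high on preps 2 and 4. The median of 11 germline markers was 0.80, 1.18, 1.12 and 1.81. The median of 13 sperm markers stayed between 0.82 and 1.13, but single sperm markers moved. From prep 3 to prep 4, gsp-3, gsp-4, ssp-10, ssp-16 and ssp-19 changed by -0.75 (ssp-10) to -0.87 (ssp-19). Over the same step spe-9, spe-15, spe-41 and fer-1 rose, and the remaining sperm markers fell by less. The 10 muscle markers had medians of -0.998, -0.31, 0.13 and 0.25 on preps 1 to 4. Singly, 8 of them were lowest on prep 1, while 6 were highest on prep 3 and 4 on prep 4, again without a count over all genes. The part of these tissues in the spindle gene ratios was not tested. In RNA of whole worms, more cells of a type and more RNA per cell cannot be told apart.

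**Figure D3:**
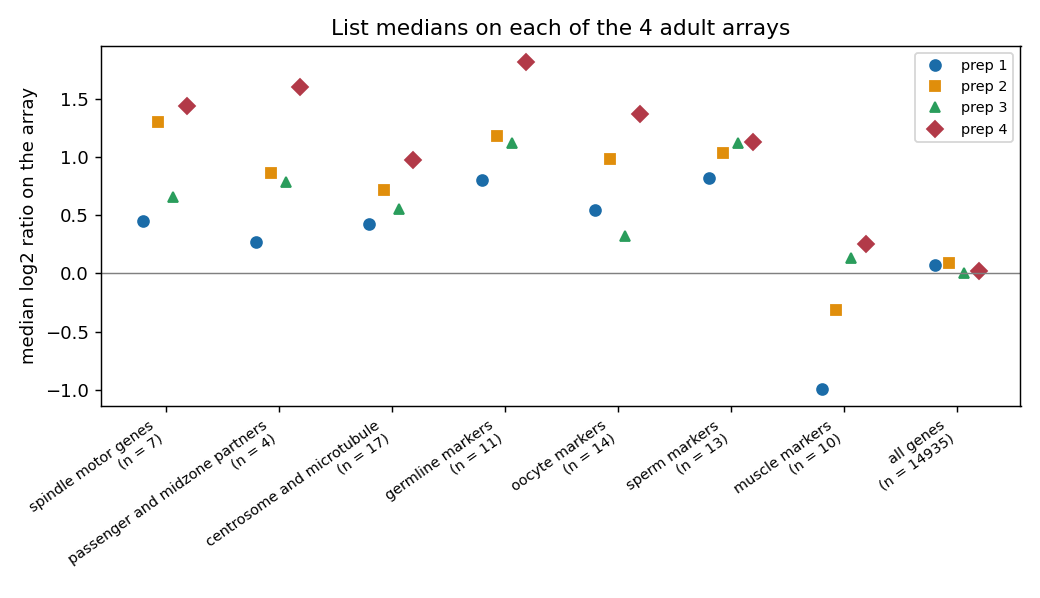
Median log2 ratio on each array for the 7 spindle motor genes, for partner and marker lists (number of genes under each name) and for all 14935 genes tested, with 1 marker per prep. The spindle genes and the oocyte markers are high on preps 2 and 4, the muscle markers run from -0.998 on prep 1 to 0.25 on prep 4, and all genes stay between 0.00 and 0.09.

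Among the marker genes, those of the germline were mostly called positive. All 11 germline markers were called positive, led by the RNA helicase gene glh-1 (mean 1.64 ± 0.39) and the P granule gene pgl-3 (1.64 ± 0.25). Of the oocyte markers 12 of 14 were called positive, with the yolk receptor gene rme-2 at 1.35 ± 0.51 and the eggshell gene cbd-1 at 1.20 ± 0.48 (SD, n = 4). That count was 7 without prep 2 and 7 without prep 4. Of the sperm markers 10 of 13 were called positive, with the sperm-specific genes ssp-10 at 2.77 ± 0.37 and ssp-19 at 2.48 ± 0.39.

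The other marker lists were not positive on balance. Of all genes tested, 23.2% were called positive and 21.2% negative. Of 9 genes first transcribed in embryos, 1 was called positive, sdz-1 (0.72 ± 0.49), and 1 negative, the muscle regulator gene hlh-1 (-0.62 ± 0.16). The positive call was lost without prep 1. Of the muscle markers 3 were called positive, 3 negative and 4 neither, with the pharyngeal myosin gene myo-1 at -1.01 ± 0.45 and the troponin gene tnt-2 at 1.01 ± 0.39. Neuron markers were called negative in 9 of 10 cases (sbt-1 -2.62 ± 0.10, ida-1 -2.35 ± 0.21) and moulting markers in 6 of 9 (noah-2 -2.83 ± 0.38, noah-1 -2.69 ± 0.24), with none positive in either list. A ratio against an unknown mixture does not show whether a tissue was present.

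Partners of the spindle genes were described from 6 further lists. Their counts of calls stand beside 23.2% positive and 21.2% negative calls over all genes tested. Of the partners of air-2 and zen-4 at the spindle midzone, 4 of 8 were measured and 3 were called positive. These were csc-1, a passenger complex subunit gene (1.04 ± 0.22, limma adjusted p = 9.4e-04), ect-2, a gene needed for cytokinesis (1.08 ± 0.77, adjusted p = 0.012), and cyk-4, the other centralspindlin subunit gene (1.00 ± 0.76, adjusted p = 0.016). The call of cyk-4 was lost without prep 3 (adjusted p = 0.066). The anillin gene ani-1, a contractile ring scaffold gene, had -0.31 ± 0.52 (adjusted p = 0.24).

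Like zen-4, its partner gene cyk-4 was lowest on prep 1 and highest on prep 4, with 0.23, 0.63, 1.15 and 1.98 on preps 1 to 4. The ratios of csc-1, whose product binds Aurora B, were 0.95, 1.20, 0.77 and 1.22. As for air-2, prep 3 was the lowest of its arrays, but its highest was prep 4 and that of air-2 was prep 2. Neither order is particular to these pairs. The genes ect-2 and gld-1, a germline marker, were also lowest on prep 1 and highest on prep 4. Prep 3 was also lowest for lin-5 and for the oocyte markers oma-1 and egg-1. The share of all genes with each order was not counted.

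Centrosome and microtubule assembly genes were mostly positive: limma called 13 of the 17 measured positive and 0 negative, and their median was 0.73. The scaffold gene spd-5 had 0.92 ± 0.19 and the centriole gene sas-5 had 0.91 ± 0.21 (SD, n = 4). The count of positive calls was 7 without prep 2 and 8 without prep 4. In this list plk-1, the Polo-like kinase gene, had 0.81, 1.10 and 0.68 on preps 1 to 3 and -2.61 on prep 4 (limma adjusted p = 0.99). Its values were singled out after they were seen.

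Dynein, the main motor towards microtubule minus ends, and its partners had 5 positive calls and 0 negative ones among 13 genes, and a median of 0.29. The highest means were those of the cortical anchor genes lin-5 (1.00 ± 0.27, limma adjusted p = 0.0014) and gpr-2 (0.93 ± 0.24, adjusted p = 0.0017). Without prep 4 the count was 3. The gene gpr-2 has a close copy, gpr-1, and its probe may bind both.

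Of the genes for katanin control and the oocyte meiotic spindle, 5 of 12 were called positive and 1 negative, with a median of 0.16. The positive calls were aspm-1, bub-1, hcp-1, hcp-2 and lab-1. The katanin control genes mel-26, ppfr-1 and mbk-2 had means of 0.11, -0.15 and 0.06 and were not called (limma adjusted p = 0.52, 0.60 and 0.81). The kinetochore kinase gene bub-1 had 1.21 ± 0.15 (limma adjusted p = 3.5e-04) and the kinetochore gene hcp-2 had 1.14 ± 0.34 (adjusted p = 0.0011). The negative call was gsp-2, a phosphatase gene, at -0.87 ± 0.35 (adjusted p = 0.0041).

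Kinesins outside the 7 genes had more negative than positive calls. Of 12 measured, 5 were called negative, 1 positive and 6 neither, with a median of -0.19. Of all genes tested, 21.2% were called negative and 23.2% positive. The lowest means were those of unc-104, the carrier of synaptic vesicle precursors, with -1.12 ± 0.22 (limma adjusted p = 6.7e-04), and vab-8, which guides cell and axon migration, with -0.81 ± 0.17 (adjusted p = 0.0025). The positive call was klp-17 at 0.59 ± 0.40 (adjusted p = 0.026), lost without prep 1, 2 or 3 (adjusted p = 0.084, 0.069 and 0.10). Not called were klp-12 and bmk-1, with means of 0.47 each (limma adjusted p = 0.064 and 0.12). Without prep 1, 3 kinesins were called negative and 2 positive. Without prep 2, 3 were called negative and 0 positive.

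**Figure D4:**
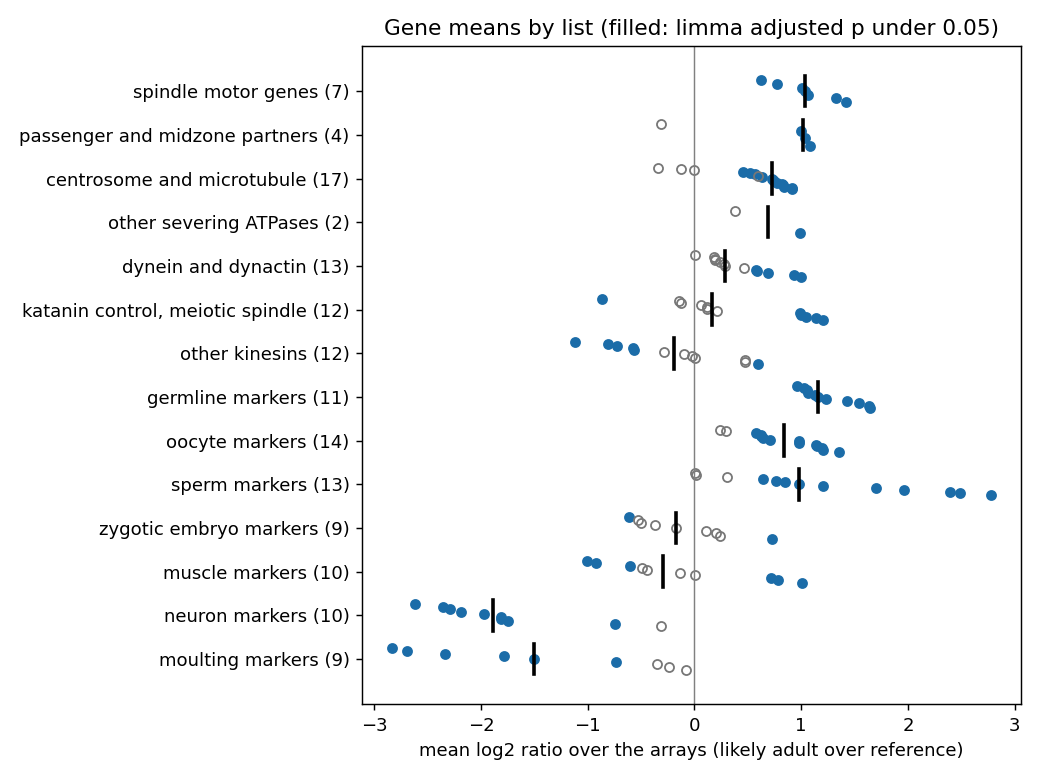
Mean log2 ratio of every measured gene of the 7 spindle motor genes and of the partner and marker lists (number of genes in brackets), with 1 point per gene, filled where limma called it at an adjusted p under 0.05, and a black bar at the list median. All 7 spindle motor genes are filled and right of 0, while the other kinesins lie on both sides with a median of -0.19.

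The genes whose 4 ratios came closest to the median profile of the 7 spindle genes were sought among 14632 other genes with 4 values, by the root-mean-square difference on the log2 scale. That profile is of no single gene, as its 4 values come from klp-19, air-2, air-1 and mei-2. Each spindle gene lay 0.23 (air-1 and zen-4) to 0.45 (klp-19) from the spindle gene nearest to it, and klp-19 and air-2 were 0.88 apart. Of the other genes, 0.31% (for klp-19) to 3.23% (for air-1) lay nearer to a spindle gene than its nearest fellow did. The nearest to the median profile was spas-1, the gene of spastin, another microtubule-severing ATPase related to katanin, at a difference of 0.05. It had 0.53, 1.33, 0.68 and 1.43 on preps 1 to 4, high on preps 2 and 4, with a mean of 0.99 ± 0.45 (limma adjusted p = 0.0038). Its relative figl-1, also of the severing list, had 0.36, -0.03, 0.58 and 0.61 and was not called (adjusted p = 0.082).

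The next were D1044.6 at a difference of 0.08, spdl-1, the gene of a kinetochore protein that recruits dynein, at 0.09, and tdpo-1 and tmem-208 at 0.10 each. All 5 of these genes had means between 0.92 and 0.99. With 4 values per gene, closeness describes level and prep order only.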

How the data were processed

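The data are 4 two-colour arrays of wild-type adult RNA against a mixed reference. Values were deposited as log2 ratios, 1 for each probe on each array, a unit taken from the values, since 2 raised to them gave ratios with 3 decimals (within 1e-05) for 99.9% or more of each array's spots. For scanner, dyes, background correction, normalization and numerator, nothing is given in the sources used here. Array medians of the deposited log2 values lay between -0.0043 and 0.0496, whether the authors centred them is unknown, and arrays correlated over probes with r between 0.659 and 0.755. Between 21243 and 21501 of 21632 probes had a value. Without intensities it is unknown which spots were near background, and precision is limited by the small number of arrays.

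Of the probes, 16450 had 1 symbol in GEO's platform annotation, 247 several and 4935 none. Symbols were updated by gene ID for 16360 probes and by accession for 8 through RefSeq (WBcel235), and 82 were kept. No coordinates are given, since the arrays name no build. On each array a gene's probes were averaged. The fit took genes measured on 3 or more arrays and used limma 3.58.1 under R 4.3.3 (intercept, lmFit, eBayes) with Benjamini-Hochberg adjustment. In a simulation with 200 of 14935 genes changed, this recovered 0% of genes changed by 0.5, 50% by 1, 96% by 2 and 98% by 3, with 5 false calls among 127. The fit to the data called far more genes, 3468 positive and 3171 negative, which makes its adjusted threshold less strict. These recovery rates therefore do not carry over to the data. The members and lists were chosen with earlier results of these data known. Named genes were every measured member, the 2 largest means in size of each list, and the 5 nearest profiles; other genes named were picked after their values were seen. Alternatives covered centring, scaling, arrays required, the prior, weights, the title date, probe summary, a size threshold and each prep left out.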

Additional observations from a re-analysis of the deposited data

Results flagged for a closer look

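In 98 sets of 4 values, 3 had a single prep far from the others, where chance alone flags about 1 in 20, or 4.9. The Polo-like kinase gene plk-1 had -2.61 on prep 4, the others lying between 0.68 and 1.10. The kinetochore gene hcp-1 had -0.33 on prep 1, the others lying between 1.42 and 1.63. Its mean of 1.04 was called (limma adjusted p = 0.025), was 1.50 without prep 1, and lost its call when prep 2, 3 or 4 was left out (adjusted p = 0.075, 0.10 and 0.11). The muscle regulator gene hlh-1 had -0.85 on prep 1, the others lying between -0.56 and -0.50. None of the 7 spindle genes had such a prep. These values were not explained or tested further.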

How the results depend on the processing

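All 7 spindle genes kept a positive mean under every refit, and mei-1, mei-2, klp-7, klp-19, air-1 and air-2 kept an adjusted p under 0.05 in each, up to 0.045 for klp-7. The count of 7 called was 6 where zen-4 lost its call (arrays centred, title date as a block, and without prep 2, 3 or 4), and lay between 6 and 7 with 1 prep left out. It was 5 with a mean of at least 1 in size required, where air-1 and zen-4 dropped out. Over all genes, 3468 positive and 3171 negative calls became 929 and 1203 under that size, which takes a subset by construction. With 1 prep left out they lay between 2501 and 3062 and between 2453 and 2753. The mean of plk-1 (-0.01) turned to 0.18 under array weights and 0.11 under the title date block, and ran from -0.37 to 0.86 with 1 prep left out, being called at 0.86 without prep 4. No pairing of samples was possible because the 4 arrays form 1 group, so only genes were paired, within each array. The planned estimate of the block correlation (duplicateCorrelation) returned no value with 3 dates on 4 arrays, and a moment estimate (0.27) was used instead, chosen after seeing the data. With 3 preps, a gene needed 2 values.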
